A study of Mus musculus with 12 samples.

Results

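The axon guidance ligands and receptors are the semaphorins, plexins, neuropilins, ephrins, Eph receptors, netrins, Dcc, the Unc5 receptors, the Slits and the Robo receptors. They were taken by gene symbol and came to 69 of the 32531 gene rows in the deposited tables. Of these, 35 encode ligands (20 semaphorins, 8 ephrins, 4 netrins and 3 Slits) and 34 encode receptors (9 plexins, 2 neuropilins, 14 Eph receptors, Dcc, 4 Unc5 receptors and 4 Robo receptors). Their RNA was compared over 4 groups of 3 libraries: hypothalamus IP, hypothalamus input, midbrain IP and midbrain input. All groups came from adult mice of the Slc17a6-EGFP/Rpl10a (JX883) transgenic line, in which the ribosomal protein Rpl10a carries an EGFP tag in cells that express Slc17a6, the gene of the vesicular glutamate transporter VGLUT2. In translating ribosome affinity purification (TRAP), polysomes with the tag are captured from tissue homogenate with antibodies against EGFP. The IP libraries hold the RNA captured in this way, and the input libraries hold total RNA of the same region. No IP from mice without the tag is named in the labels. They do not say how many animals gave RNA to each library, so the p-values below measure the spread between these libraries, which may be technical.

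Guidance molecules act as attractants or repellents that steer growing axons, and many of them are still made in the adult brain, where they have known roles in synapse maintenance and plasticity. Semaphorins signal through plexins, and most secreted class 3 semaphorins also need a neuropilin as co-receptor. Ephrins are bound to the cell surface and signal to Eph receptor tyrosine kinases on the neighbouring cell, and can signal in reverse as well. Netrins attract axons through Dcc and repel them through the Unc5 receptors, while Slits repel axons through the Robo receptors. Several of these genes have well known roles outside neurons. In the mouse, Unc5b, Plxnd1, Robo4, Ephb4, Efnb2, Efna1 and Sema3g are best known from blood vessels, and Plxnb3, Sema4d, Sema5a and Sema6a have been described in the oligodendrocyte lineage.

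Slc17a6 had 3489, 1122 and 1743 CPM in replicates 1, 2 and 3 of the hypothalamus IP (CPM, gene counts scaled to the size of the library with TMM factors), against 518, 218 and 311 CPM in the hypothalamus input. In the midbrain it had 3955, 1864 and 2394 CPM in the IP, against 1236, 501 and 589 CPM in the input. All IP libraries lay above all inputs of their region, by 2.60 ± 0.49 on the log2 scale (SE) in the hypothalamus and by 1.82 ± 0.48 in the midbrain, with adjusted p of 0.00184 and 0.0116 (edgeR's quasi-likelihood F test with Benjamini-Hochberg adjustment over 18128 genes). Rpl10a, a gene with near-identical copies and therefore an uncertain count, averaged 5.18 CPM in the hypothalamus IP, 8.21 CPM in its input, 5.53 CPM in the midbrain IP and 6.52 CPM in its input, and passed in no comparison without the replicate block described below. The 7 oligodendrocyte markers summed to 145 to 162 CPM in the hypothalamus IP, against 2024 to 2809 CPM in the hypothalamus input. They summed to 240 to 366 CPM in the midbrain IP, against 4037 to 5401 CPM in the midbrain input. All 7 fell in the IP of both regions, as did all 6 astrocyte, 4 oligodendrocyte precursor, 5 microglia and 3 GABAergic markers. So did all 4 meningeal and fibroblast markers, and in each region 3 of 4 ependymal and choroid plexus markers. The ependymal and choroid plexus sums overlapped between midbrain IP (2.59 to 33.8 CPM) and its input (19.1 to 906 CPM). All 5 neuronal markers had positive fold changes, of which 3 passed for hypothalamus and 2 for midbrain. Among 3 glutamatergic markers only Slc17a6 rose, and the lowest fold change was negative (-0.26 for hypothalamus, -0.29 for midbrain). The 7 endothelial and mural markers summed to 0.862 to 2.57 CPM in the hypothalamus IP, against 20.7 to 23.2 CPM in its input, and 2 of them (Cldn5 and Slco1a4) had no count in any of these IP libraries. They summed to 3.28 to 6.34 CPM in the midbrain IP, against 23.5 to 34.3 CPM in its input. Gene counts per library lay between 41909019 and 55148109, so that 3 counts, the floor used here, came to at most 0.0716 CPM.

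The libraries of replicate 1 differed from the others in a way that touches many values below. Replicate 1 was above replicates 2 and 3 for 56 of the 66 members tested in the hypothalamus IP (37.6% of all genes tested), for 57 in the hypothalamus input (35.3% of all genes), for 59 in the midbrain IP (40% of all genes) and for 47 in the midbrain input (37.6% of all genes). The median ratio of replicate 1 to the mean of the other replicates was 2.12 over the members in the hypothalamus IP, 1.78 in the hypothalamus input, 1.73 in the midbrain IP and 1.32 in the midbrain input. Over all genes tested the same ratio was 0.989, 0.974, 1.03 and 1.00 in these groups. Slc17a6 too was highest in replicate 1 of each group. For genes with at least 8000 bases of exon the median ratio in the hypothalamus IP was 0.985, beside 2.11 for the 25 members of that length. Over exon lengths of 2000 to 4000, 4000 to 8000 and at least 8000 bases, the members' ratio rose in the inputs. It was 1.39, 1.63 and 2.05 in the hypothalamus input, and 1.06, 1.22 and 1.53 in the midbrain input. In the IPs it was 2.12, 2.40 and 2.11 for hypothalamus, and 1.86, 1.94 and 1.51 for midbrain. The ribosomal RNA precursor Rn45s took 12.3% and 12.5% of gene counts in replicate 1 of the hypothalamus IP and the midbrain IP, beside 5.21% to 6.85% in the other IPs. Reads ambiguous between genes made up 21.8% and 19.9% in replicate 1 of the hypothalamus input and the midbrain input, beside 5.77% to 13.1% in the other inputs. These are shares of the reads in a gene, in no gene or ambiguous, and leave out alignments that were not unique. Such alignments numbered 63357909 and 61544425 in replicate 1 of the hypothalamus IP and the midbrain IP, beside 34163749 to 43361188 in the other IPs. In the inputs they numbered 25815829 and 25874487 in replicate 1, beside 22408447 to 29676790. The part of transcript length, Rn45s, ambiguous reads or non-unique alignments in the shift was not tested. Because the same number was high in each group, a fit with the replicate number as a term (the replicate block) was made too. Its values are given below for 3 comparisons. In these, the deviations of same-numbered libraries from their group means correlated at 0.1 or more for each number. The block was however fitted over all 12 libraries, so that pairs under 0.1 enter these values too. Among such pairs at number 2 were midbrain IP and midbrain input (0.0754) and hypothalamus IP and midbrain input (0.0737). The labels number all 4 groups alike. Blocked counts for the midbrain and the regional difference are given in full in the last section.

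**Figure D1:**
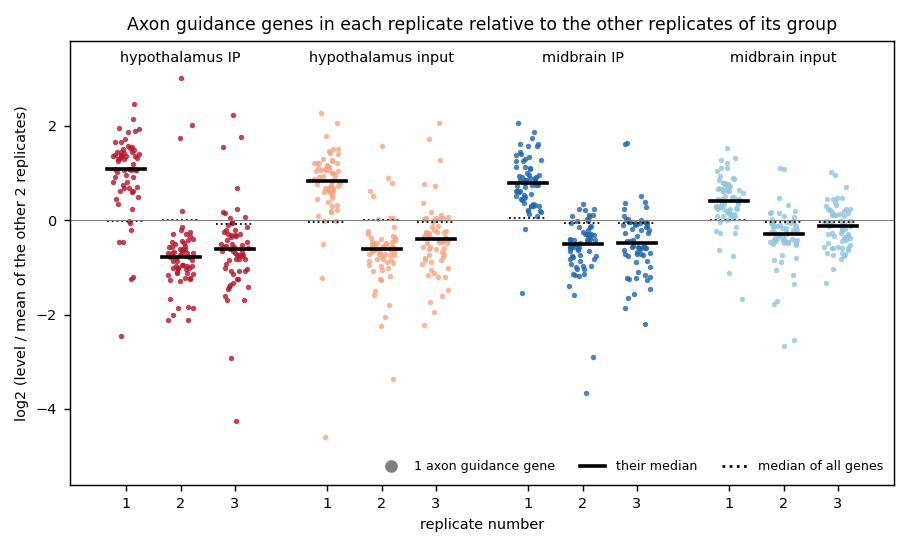
The vertical axis gives log2 of each member's level in a library over its mean level in the other 2 libraries of the group, and the horizontal axis gives the replicate number within hypothalamus IP, hypothalamus input, midbrain IP and midbrain input. Each point is 1 member with a count in all 3 libraries, and the thick bars (member medians) stand above the dotted ones (medians of all genes) for replicate 1 in all 4 groups.

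The sequences before the start of Plxnb1 and Plxnb3 are shown because these receptors were lower in the IP of both regions, and that of Sema7a because it was called in 3 comparisons. Each is a window of 200 bases, from 250 to 51 bases before the RefSeq start, taken from the RefSeq promoter table of build GRCm38.p6, in which 59 of the 69 members had an entry. All 3 windows also end before the start that GENCODE gives the gene. For Sema4g the RefSeq start lies 243 bases inside the gene as GENCODE places it, and its window is not shown. All 3 lie on the plus strand: Plxnb1 at chr9:109095186-109095385, Plxnb3 at chrX:73756853-73757052 and Sema7a at chr9:57939862-57940061. Capitals mark GC boxes (GGGCGG), E-boxes (CANNTG) and a Sox-type word (ACAAAG), each searched on both strands, and no marked words overlapped.
Plxnb1: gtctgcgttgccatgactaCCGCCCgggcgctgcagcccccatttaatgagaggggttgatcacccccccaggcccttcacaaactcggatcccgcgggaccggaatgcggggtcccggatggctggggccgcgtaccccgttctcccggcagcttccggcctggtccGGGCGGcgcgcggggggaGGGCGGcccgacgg
Plxnb3: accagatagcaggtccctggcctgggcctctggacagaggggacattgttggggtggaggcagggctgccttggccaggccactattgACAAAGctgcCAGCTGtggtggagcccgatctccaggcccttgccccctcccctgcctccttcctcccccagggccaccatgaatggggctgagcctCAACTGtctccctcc
Sema7a: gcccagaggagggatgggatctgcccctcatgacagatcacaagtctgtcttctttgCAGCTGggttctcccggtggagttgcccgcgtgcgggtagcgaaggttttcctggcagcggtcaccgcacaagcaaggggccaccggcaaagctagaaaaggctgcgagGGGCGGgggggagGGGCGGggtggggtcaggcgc
The Plxnb1 window held 3 GC boxes and 23 CG dinucleotides at 72.5% G and C. The Plxnb3 window held 1 CG dinucleotide at 65% G and C, with 2 E-boxes, 1 Sox-type word and no GC box. The Sema7a window had 2 GC boxes, 1 E-box and 12 CG dinucleotides at 65.5% G and C. Over the 32851 windows of the same length in the table, 24.6% held a GC box, 59% an E-box and 13.6% the Sox-type word, and the median window had 4 CG dinucleotides at 51.5% G and C. A match is a description of letters and marks no known site.

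Most members were present in each group. At a mean of at least 1 CPM there were 59 of 69 members in the hypothalamus IP, 59 in the hypothalamus input, 58 in the midbrain IP and 60 in the midbrain input, and at 10 CPM or more there were 36, 41, 41 and 41 members in these groups. Efna4, Ntn5 and Sema3g had at most 10, 8 and 9 counts in any library and did not pass the filter on low counts, which left 66 members for the tests. Since the filter can pass a gene on its higher group alone, the 66 are not all members, and their counts below are read only beside the share over all genes. Per kilobase of exon, the ephrins Efnb3 and Efna5 led in the hypothalamus IP, at 27.9 ± 12.3 and 23.2 ± 9.28 CPM per kb (SD, n = 3), ahead of the semaphorin Sema4f at 14.1 ± 8.43 CPM per kb. In the midbrain IP the highest levels were those of Sema6a at 18.0 ± 3.56, Efna5 at 16.6 ± 2.53 and Sema7a at 15.3 ± 1.49 CPM per kb, and each of these lay within the SD of its neighbour in the order. Efnb3 was the highest in both inputs, at 22.5 ± 4.98 CPM per kb in the hypothalamus input and 22.8 ± 2.46 CPM per kb in the midbrain input. Among receptors, Plxnc1, the plexin that binds Sema7a, stood first in the hypothalamus IP (11.6 ± 2.98 CPM per kb) and in the midbrain IP (14.2 ± 3.06 CPM per kb).

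The comparison of hypothalamus IP with hypothalamus input asks which guidance genes were richer or poorer in ribosome-bound RNA of Slc17a6-expressing cells than in the whole tissue. In the IP 3 members rose, all of them ligands (Sema4g, Sema7a and Efna3), and 3 fell, all of them receptors (Plxnb3, Ephb3 and Plxnb1). Over the 32 ligands tested 16 fold changes were positive and 16 negative, and over the 34 receptors 11 and 23. No split by role is therefore read from these few calls. Each direction held 4.55% of the 66 members, beside 14.2% of all genes tested that rose and 19.6% that fell. The members' median log2 fold change was -0.15, beside -0.08 over all genes. All 3 IP libraries were above all 3 inputs for 5 members (19.7% of all genes) and below them for 3 members (27.3% of all genes). In bulk samples, fewer cells of a type and less RNA per cell cannot be told apart. The IP holds RNA of captured polysomes and the input total RNA, so a difference in ribosome loading cannot be told apart from these either.

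Sema4g, a transmembrane semaphorin, had 81.1, 31.3 and 45.9 CPM in replicates 1, 2 and 3 of the hypothalamus IP, against 27.9, 23.1 and 26.4 CPM in the input. All IP libraries lay above all inputs, with a log2 fold change of 1.03 ± 0.32 (adjusted p = 0.0253). Sema7a, which is anchored to the membrane by a lipid and signals through Plxnc1 and integrins, had 32.1, 23.0 and 18.9 CPM in the IP, against 13.8, 10.5 and 13.8 CPM in the input. Its groups did not overlap either, and the fold change was 0.96 ± 0.20 (adjusted p = 0.00362). Efna3, a lipid-anchored ephrin that binds EphA receptors, had 19.5, 5.67 and 7.53 CPM in the IP, against 5.30, 3.65 and 4.81 CPM in the input, without overlap. Its fold change was 1.25 ± 0.44 (adjusted p = 0.0447). Replicate 1 stood far above the other IP libraries for Sema4g and Efna3, and without it their fold changes were 0.58 (adjusted p = 0.111) and 0.53 (adjusted p = 0.270). Sema4g also lost its call without hypothalamus input replicate 2 (adjusted p = 0.0826) or 3 (0.0514). Efna3 lost it without hypothalamus input replicate 1 (0.0710), 2 (0.137) or 3 (0.0829), midbrain input replicate 1 (0.0577), 2 (0.0575) or 3 (0.0589), or midbrain IP replicate 3 (0.0546). Efna3 also missed the threshold with scaling by library size alone (0.0588), with limma-voom (0.111) and with the hypothalamic libraries alone in the fit (0.0858). The midbrain libraries enter that test through the shared estimate of the spread. Sema7a kept its call when any single library was left out.

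Plxnb3, a plexin that binds Sema5a, had 0.383, 1.76 and 0.0562 CPM in the hypothalamus IP, against 12.3, 11.0 and 12.1 CPM in the input. The IP libraries differed among themselves at this low level, yet all lay below the inputs, and the log2 fold change was -3.998 ± 0.74 (adjusted p = 0.00163). The oligodendrocyte markers fell in the same libraries, with a median log2 fold change of -4.87 over all 7, and their part in the Plxnb3 result was not tested. Of the other members described in that lineage, Sema4d (-0.26), Sema5a (-0.79) and Sema6a (-0.52) did not pass. Plxnb1, the receptor of Sema4d, had 17.1, 7.40 and 4.55 CPM in the IP, against 33.7, 20.3 and 24.4 CPM in the input. All IP libraries were below all inputs, and the fold change was -1.43 ± 0.40 (adjusted p = 0.0154). The call on Plxnb1 was lost without hypothalamus input replicate 1 (adjusted p = 0.0565) or IP replicate 2 (0.0599), and with the hypothalamic libraries alone in the fit (0.0504). Ephb3, a receptor of B-type ephrins, had only 0.181, 0.110 and 0.131 CPM in the IP, against 1.03, 0.143 and 1.93 CPM in the input, so that the lowest input lay inside the range of the IPs. Its fold change was -2.86 ± 0.79 (adjusted p = 0.0147), and the call was lost without IP replicate 2 (adjusted p = 0.0518) or input replicate 3 (0.0759) of that region and with limma-voom (0.105) or a replicate block fitted within each region (0.0502). Plxnb3 kept its call when any single library was left out.

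By family, the 6 tested ephrins other than Efna1 had positive fold changes in the hypothalamus, from 0.31 to 1.25, while Efna1 stood at -2.23 with at most 0.842 CPM in any of these libraries. Both neuropilins were positive (Nrp1 1.07, Nrp2 0.54), 7 of 9 plexins were negative with a family median of -0.54, and all 3 Slits lay between -0.36 and -0.04. Among these families the calls named above were the ones that passed, and the other values are given as levels of difference without a call. Epha2 had no count in any hypothalamus IP library and at most 0.342 CPM in the inputs, and no fold is given for it. Dcc, the attractive netrin receptor, had 51.9, 23.8 and 25.5 CPM in the hypothalamus IP, against 63.5, 29.9 and 33.8 CPM in the input, and 39.9, 32.98 and 15.8 CPM in the midbrain IP, against 52.7, 38.4 and 30.6 CPM in the input. Its ranges overlapped in both regions, at log2 fold changes of -0.33 ± 0.40 (adjusted p = 0.569) and -0.46 ± 0.41 (adjusted p = 0.421). It passed in no comparison with or without the replicate block, and in the midbrain it passed with a block fitted within each region (-0.52, adjusted p = 0.0248). Without hypothalamus input replicate 1 the hypothalamic value was 0.08, so that no direction is given.

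With the replicate block, 8 members rose and 14 fell in the hypothalamus IP, beside 19.5% and 23.8% of all genes in that fit. The members added as higher were Nrp1, Sema6b, Efna5, Epha7 and Robo2, and those added as lower were Sema3c, Sema3d, Sema5a, Sema5b, Sema6a, Sema6d, Plxna2, Plxna3, Epha5, Unc5b and Unc5d. Nrp1, a co-receptor for class 3 semaphorins, had 96.7, 27.4 and 23.3 CPM in the IP, against 35.7, 15.5 and 19.3 CPM in the input. It was higher in the IP at every number, with a log2 fold change of 0.87 ± 0.22 in the blocked fit (adjusted p = 0.00664) and 1.07 ± 0.56 without the block (adjusted p = 0.167). Without hypothalamus IP replicate 1 the unblocked Nrp1 value was 0.11. Unc5d, a repellent netrin receptor, had 59.5, 26.7 and 25.5 CPM in the IP, against 109.8, 59.1 and 55.9 CPM in the input. It was lower at every number, with -1.04 ± 0.18 in the blocked fit (adjusted p = 0.000581) and -1.01 ± 0.37 without the block (adjusted p = 0.0530). Without the block the Unc5d value was -1.52 without hypothalamus IP replicate 1 and -0.63 without hypothalamus input replicate 1. Sema6d, a transmembrane ligand of A-type plexins, had 127, 50.6 and 70.7 CPM in the IP, against 205, 88.7 and 108 CPM in the input. Its value was -0.70 ± 0.14 in the blocked fit (adjusted p = 0.00151) and -0.70 ± 0.37 without the block (adjusted p = 0.170). The unblocked Sema6d value was -1.14 without hypothalamus IP replicate 1, -0.44 without IP replicate 2 and -0.25 without input replicate 1. Without hypothalamus IP replicate 1, the library in which most members were highest, the fit without the block called 1 member higher and 13 lower, beside 13.4% and 18.6% of all genes in that fit, and the members' median was -0.68, beside -0.16 over all genes. The number higher was also 1 without hypothalamus input replicate 2 or 3, beside 10.2% and 11% of all genes. The number lower was 1 without IP replicate 2 (15.4% of all genes) and 5 without input replicate 2 (14.8%).

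**Figure D2:**
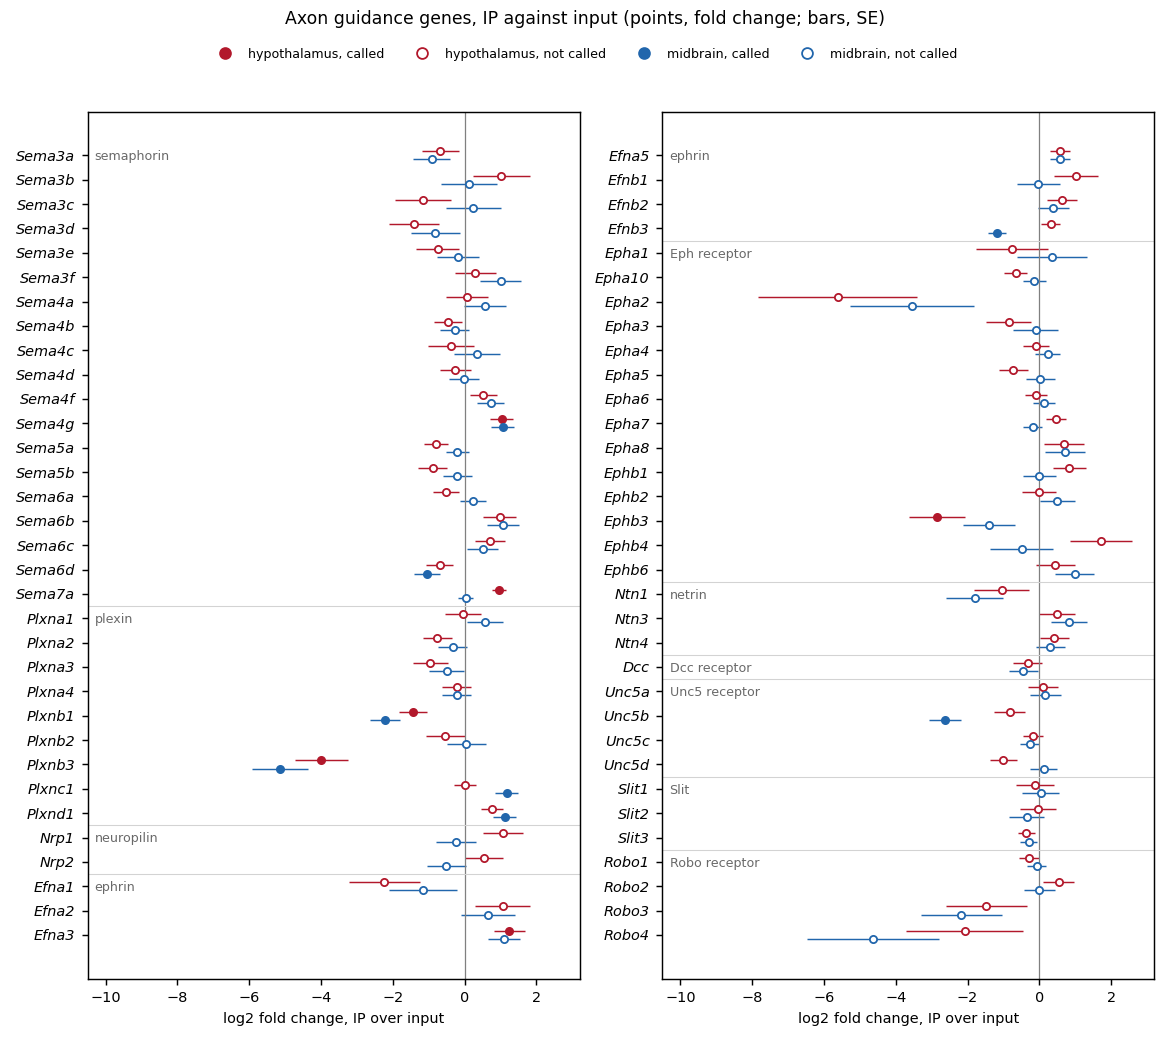
The horizontal axis gives the log2 fold change of IP over input for the 66 members tested, grouped by family down the page, with hypothalamus above midbrain for each gene (points, fold change; bars, SE; filled points, adjusted p under 0.05 without the block). Most points lie within 1 log2 unit of 0, and Plxnb3 stands at -3.998 in the hypothalamus and -5.15 in the midbrain. The fitted value of Epha2, which had no count in the hypothalamus IP, depends on the prior count and is no bound.

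In the midbrain the same question was asked of IP and input from that region. In the midbrain IP 3 members rose (Plxnc1, Plxnd1 and Sema4g) and 5 fell (Plxnb3, Unc5b, Plxnb1, Efnb3 and Sema6d). These are 4.55% and 7.58% of the members, beside 14% of all genes that rose and 19.9% that fell, and the members' median log2 fold change was -0.01, beside -0.05 over all genes. All 3 IP libraries were above all 3 inputs for 7 members (21.1% of all genes) and below them for 11 (27.8% of all genes). Sema4g rose and Plxnb1 and Plxnb3 fell in both regions. The regions shared 1 of 3 higher calls in each, and 2 lower calls out of 3 in the hypothalamus and 5 in the midbrain. How many of all genes were called alike in both regions was not counted, so this overlap is a description only.

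Plxnc1 had 135, 89.3 and 132 CPM in the midbrain IP, against 65.2, 43.2 and 49.6 CPM in the input. All IP libraries were above all inputs, with a log2 fold change of 1.17 ± 0.32 (adjusted p = 0.0146). Plxnd1, the receptor of Sema3e, had 11.3, 6.03 and 12.4 CPM in the IP, against 4.77, 3.75 and 5.23 CPM in the input, again without overlap. Its fold change was 1.11 ± 0.32 (adjusted p = 0.0175). The endothelial and mural markers stood at a median log2 fold change of -3.48 over 7 markers in the same libraries. Of the 6 tested members best known from vessels, Plxnd1 among them, 2 had positive and 4 had negative fold changes there. The part of vessel cells in the Plxnd1 result was not tested. Sema4g had 86.2, 43.2 and 60.5 CPM in the IP, against 31.5, 25.6 and 33.7 CPM in the input, a fold change of 1.06 ± 0.32 (adjusted p = 0.0220) without overlap. Each of these calls depended on single libraries: Plxnc1 lost it without midbrain input replicate 2 (adjusted p = 0.0583) or 3 (0.0505), and Plxnd1 without midbrain IP replicate 1 (0.0566) or 3 (0.0693) or input replicate 2 (0.0663). Sema4g lost it without midbrain IP replicate 1 (0.0933) or midbrain input replicate 1 (0.0535) or 2 (0.0776). The number of members higher was accordingly 0 without midbrain input replicate 2 (10.8% of all genes) and 1 without midbrain IP replicate 1 (11.1%). It was 5 without hypothalamus IP replicate 1 (15.2%).

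Plxnb3 had 0.723, 0.595 and 0.444 CPM in the midbrain IP, against 18.3, 19.7 and 24.8 CPM in the input. The groups lay far apart, with a log2 fold change of -5.15 ± 0.78 (adjusted p = 0.000482), and the oligodendrocyte markers stood at a median of -4.06 over all 7 in the same comparison. Unc5b, a repellent netrin receptor that is prominent in vessels, had 8.10, 2.98 and 5.31 CPM in the IP, against 35.6, 26.5 and 38.9 CPM in the input. Its fold change was -2.63 ± 0.45 (adjusted p = 0.000960). The endothelial and mural markers fell in these libraries too, with 5 of 7 called lower, and their part in the Unc5b result was not tested. Plxnb1 had 5.33, 4.84 and 4.42 CPM in the IP, against 28.3, 17.7 and 22.1 CPM in the input, a fold change of -2.22 ± 0.41 (adjusted p = 0.00163). None of the ranges of these 3 receptors overlapped, and none of their calls was lost when any single library was left out.

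Among ligands, Efnb3, a transmembrane ephrin known in the mouse as a midline barrier to corticospinal axons, had 34.8, 30.1 and 31.3 CPM in the midbrain IP, against 80.7, 65.0 and 72.4 CPM in the input. The IP libraries were close to each other and all below the inputs, with a log2 fold change of -1.18 ± 0.26 (adjusted p = 0.00471). Sema6d had 99.7, 63.9 and 79.0 CPM in the IP, against 225, 136 and 139 CPM in the input. Its fold change was -1.04 ± 0.37 (adjusted p = 0.0463), just inside the threshold. The Sema6d call was lost without midbrain IP replicate 1 (adjusted p = 0.0543), 2 (0.140) or 3 (0.104), midbrain input replicate 1 (0.174), 2 (0.0570) or 3 (0.0619), or hypothalamus IP replicate 3 (0.0531), and also with no filter on low counts (0.0778) or without Rn45s and the mitochondrial genes (0.0518). Efnb3 kept its call when any single library was left out. The netrin ligands had fold changes of -1.80 (Ntn1), 0.83 (Ntn3) and 0.30 (Ntn4), and the Slits and their receptors lay between -4.64 (Robo4, at most 1.17 CPM in any library) and 0.03 (Slit1). None of them passed without the replicate block, with which 1 netrin and 1 Robo receptor were called lower (23.6% of all genes).

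**Figure D3:**
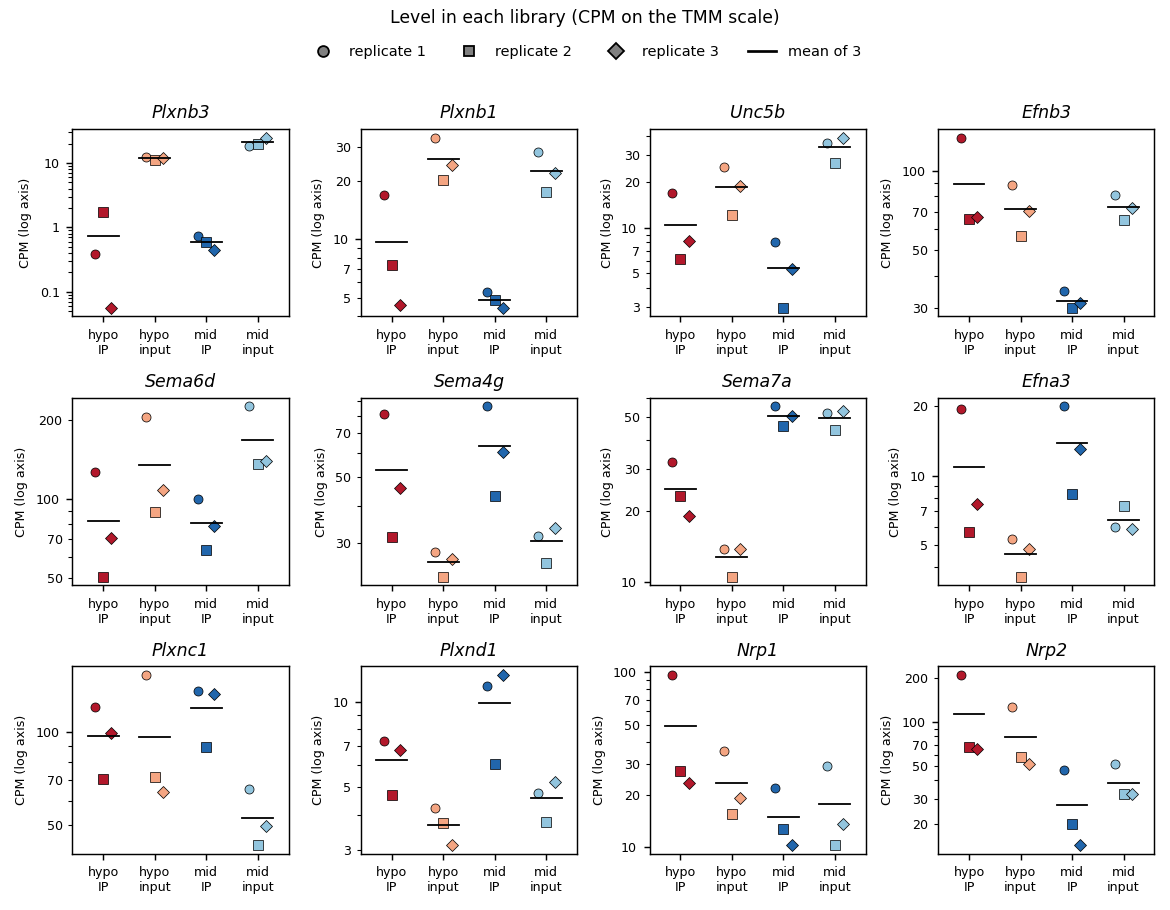
Each panel gives the CPM of 1 member on a log axis in hypothalamus IP, hypothalamus input, midbrain IP and midbrain input (symbols, replicates 1 to 3; bars, mean of 3). Plxnb3 lies below 2 CPM in all 6 IP libraries and at 11 CPM or more in the 6 inputs, and Efnb3 is lower in the IP than in the input in the midbrain panel columns.

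The regional difference in enrichment sets the hypothalamic IP over input fold change against the midbrain one. Without the replicate block no member passed by edgeR's quasi-likelihood test or by limma-voom. Over all genes edgeR's test called 0.0607% higher and 0.0165% lower. DESeq2 called 1 member higher (Efnb3), beside 0.713% of all genes higher and 0.464% lower. With the block edgeR's test called Efnb3 and Unc5b higher, beside 0.32% of all genes higher and 0.259% lower. Midbrain IP and input correlated at only 0.0754 at number 2, so the values that follow are those without the block. At an unadjusted p under 0.05 there were 4 members (6.56% of all genes). Efnb3 gave a difference of 1.49 ± 0.37 on the log2 scale (adjusted p = 0.248), Unc5b 1.79 ± 0.60 (adjusted p = 0.482), Sema7a 0.93 ± 0.29 (adjusted p = 0.408) and Plxnc1 -1.16 ± 0.45 (adjusted p = 0.633). For Efnb3 the hypothalamic libraries had 134, 65.5 and 67.0 CPM in the IP, against 88.1, 56.5 and 70.5 CPM in the input, where the ranges overlapped. For Unc5b they had 16.96, 6.21 and 8.13 CPM in the IP, against 24.8, 12.01 and 18.8 CPM in the input, also with overlap. Sema7a had 55.4, 45.7 and 50.5 CPM in the midbrain IP, against 52.1, 43.9 and 52.9 CPM in the midbrain input, a log2 fold change of 0.03 ± 0.20, beside 0.96 in the hypothalamus.

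Between the IPs of the regions, the comparison asks how tagged cells of the hypothalamus differ from those of the midbrain in guidance RNA. IP and input of a region shared a lane at each number, but the regions did not. Hypothalamus and midbrain were in lanes 7 and 8 at number 1, 6 and 7 at number 2, and 2 and 3 at number 3. The part of the lane in differences between the IPs or between the inputs was not tested. Efnb3 rose in the hypothalamus IP, with 134, 65.5 and 67.0 CPM, against 34.8, 30.1 and 31.3 CPM in the midbrain IP. All hypothalamic libraries were above all midbrain ones, with a log2 fold change of 1.47 ± 0.26 (adjusted p = 0.00861). Sema7a fell, with 32.1, 23.0 and 18.9 CPM in the hypothalamus IP, against 55.4, 45.7 and 50.5 CPM in the midbrain IP. Its groups did not overlap, and the fold change was -1.03 ± 0.20 (adjusted p = 0.0144), although the call was lost without midbrain IP replicate 1 (adjusted p = 0.0523) or hypothalamus IP replicate 2 (0.0655). With the IP libraries alone in the fit, the adjusted p was 0.0610 for Efnb3 and 0.0764 for Sema7a. These were the only 2 calls, 1.52% of the members in each direction, beside 2.05% of all genes that rose and 2.21% that fell. The members' median was -0.18, or -0.16 with Epha2 at its bound, beside 0.01 over all genes. The 3 hypothalamic libraries were above the 3 midbrain ones for 4 members (10% of all genes) and below them for 7 (8.52% of all genes). At an unadjusted p under 0.05 there were 20 members (18.1% of all genes). The number of members higher was 3 without hypothalamus IP replicate 3 (2.07% of all genes) or hypothalamus input replicate 1 (1.71%). It was 2 without midbrain IP replicate 1 (1.23%). The number lower was 2 without hypothalamus IP replicate 1 (2.35% of all genes) or hypothalamus input replicate 2 (1.61%).

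Same-numbered IPs of the regions deviated together, and with the replicate block 7 members rose in the hypothalamus IP and 12 fell, beside 4.41% and 6.75% of all genes. Both neuropilins were among the higher ones. Nrp2 had 210.2, 67.3 and 66.0 CPM in the hypothalamus IP, against 47.1, 20.2 and 14.4 CPM in the midbrain IP, which did not overlap. Its log2 fold change was 2.03 ± 0.19 with the block (adjusted p = 2.45e-05) and 2.07 ± 0.55 without it (adjusted p = 0.0573). Nrp1 had 96.7, 27.4 and 23.3 CPM in the hypothalamus IP, against 22.0, 12.8 and 10.3 CPM in the midbrain IP, and gave 1.49 ± 0.23 with the block (adjusted p = 0.000965) and 1.71 ± 0.57 without it (adjusted p = 0.126). Sema3a, a secreted repellent that acts through Nrp1, had 8.68, 4.17 and 4.05 CPM in the hypothalamus IP, against 1.98, 1.42 and 1.14 CPM in the midbrain IP. It stood apart as well, at 1.83 ± 0.41 with the block (adjusted p = 0.0119) and 1.89 ± 0.53 without it (adjusted p = 0.0695). Slit2, the best studied Robo ligand, was higher with the block (1.13 ± 0.19, adjusted p = 0.00187), and so were Efnb2 (1.43 ± 0.31, adjusted p = 0.00986), Unc5b and Efnb3. Without hypothalamus IP replicate 1 the unblocked values were 1.29 for Nrp2, 0.76 for Nrp1, 0.56 for Slit2, 0.87 for Efnb2 and 0.39 for Unc5b.

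Of the 12 members lower in the hypothalamus IP with the block, 5 were Eph receptors (Epha4, Epha5, Epha8, Epha10 and Ephb3), 6 were semaphorins (Sema3c, Sema3e, Sema5a, Sema5b, Sema6a and Sema7a) and 1 was Robo1. Epha4, the receptor through which Efnb3 repels corticospinal axons in the mouse, had 75.0, 37.9 and 47.5 CPM in the hypothalamus IP, against 133, 75.5 and 105 CPM in the midbrain IP. The groups were separate by a narrow margin, and the fold change was -0.99 ± 0.12 with the block (adjusted p = 0.000282) and -0.97 ± 0.36 without it (adjusted p = 0.172). Sema6a, a transmembrane ligand of A-type plexins, had 104, 30.5 and 46.2 CPM in the hypothalamus IP, against 191, 129 and 153 CPM in the midbrain IP. It gave -1.52 ± 0.21 with the block (adjusted p = 0.000524) and -1.39 ± 0.37 without it (adjusted p = 0.0566). The oligodendrocyte markers fell between these groups too, with 4 of 7 called lower, and their part in the Sema6a and Sema5a values was not tested. Robo1, a Slit receptor, stood at -0.75 ± 0.16 with the block (adjusted p = 0.00815).

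**Figure D4:**
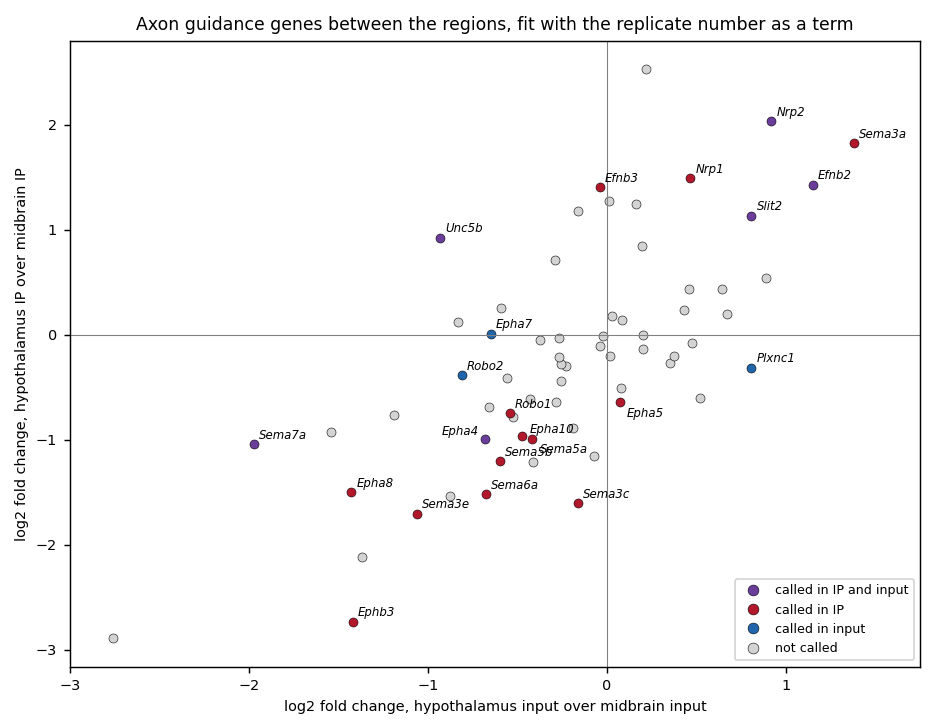
The log2 fold change of hypothalamus IP over midbrain IP (vertical axis) is drawn against that of hypothalamus input over midbrain input (horizontal axis) for the 66 members, both from the fit with the replicate block. Colours mark members with an adjusted p under 0.05 in both, in the IP, in the input or in neither, and Nrp2, Efnb2 and Slit2 lie in the upper right while Sema7a and Epha4 lie in the lower left. The fitted value of Epha2 depends on the prior count.

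The inputs of the regions show how far whole tissue differed. Sema7a was the single member called, with 13.8, 10.5 and 13.8 CPM in the hypothalamus input, against 52.1, 43.9 and 52.9 CPM in the midbrain input. The groups were far apart, at a log2 fold change of -1.97 ± 0.21 (adjusted p = 0.000710). That is 1.52% of the members lower and none higher, beside 0.601% of all genes lower and 1% higher. At an unadjusted p under 0.05 there were 6 members (11.2% of all genes). DESeq2 called 1 member higher, beside 2.62% of all genes in its own fit. The hypothalamus inputs were above the midbrain inputs without overlap for 2 members (11.9% of all genes) and below them for 8 (10.2% of all genes). With the block 4 members rose in the hypothalamus input (Efnb2, Nrp2, Plxnc1 and Slit2) and 5 fell (Sema7a, Epha4, Epha7, Robo2 and Unc5b), beside 2.87% and 3.18% of all genes. Nrp2 had 127, 57.7 and 51.5 CPM in the hypothalamus input, against 51.6, 32.3 and 32.1 CPM in the midbrain input, higher at every number, and gave 0.92 ± 0.18 with the block (adjusted p = 0.00853) and 1.03 ± 0.54 without it (adjusted p = 0.532), or 0.50 without hypothalamus input replicate 1. Unc5b had 24.8, 12.01 and 18.8 CPM in the hypothalamus input, against 35.6, 26.5 and 38.9 CPM in the midbrain input, and gave -0.93 ± 0.22 with the block (adjusted p = 0.0237), while between the IPs it was higher in the hypothalamus (0.92 ± 0.23, adjusted p = 0.0177). Efnb3, at 88.1, 56.5 and 70.5 CPM in the hypothalamus input and 80.7, 65.0 and 72.4 CPM in the midbrain input, had a fold change of -0.02 ± 0.26 there.

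Downstream of these receptors, 40 intracellular effectors were listed. In the hypothalamus IP 9 rose and 8 fell, and in the midbrain IP 8 rose and 6 fell, beside the 14.2% and 19.6% of all genes in the hypothalamus and the 14% and 19.9% in the midbrain. Of these, 7 rose and 6 fell in both regions, and the share of all genes called alike in both was not counted. Those that rose in both include Chn1 (chimaerin, a Rac-inactivating protein downstream of Epha4), at 1.01 ± 0.11 in the hypothalamus and 0.84 ± 0.11 in the midbrain, Pak1 (a kinase activated by Rac) at 0.95 ± 0.10 and 0.96 ± 0.10, and Rnd1 (a small GTPase that binds plexins) at 1.01 ± 0.25 in each region. Those that fell in both include Dock1 (a Rac activator linked to Dcc) at -3.79 ± 0.51 and -3.52 ± 0.51, Rock1 (a kinase that acts on the actin cytoskeleton) at -2.38 ± 0.23 and -2.19 ± 0.22, and Farp1 (an exchange factor that binds A-type plexins) at -0.98 ± 0.16 and -0.92 ± 0.16. Adjusted p-values of these 6 genes were at most 0.00864. Srgap1, a Robo effector, rose in the hypothalamus IP against its input (1.16 ± 0.21, adjusted p = 0.00151) and against the midbrain IP (1.11 ± 0.21, adjusted p = 0.0121). Between the IPs 2 effectors rose in the hypothalamus (Srgap1 and Dpysl5) and 1 fell (Srgap2), beside 2.05% and 2.21% of all genes. Without the block edgeR's test called no effector in the regional difference or between the inputs. At an unadjusted p under 0.05 there were 2 in the regional difference (6.56% of all genes) and 8 between the inputs (11.2% of all genes). With the block 14 effectors rose and 9 fell in the hypothalamus IP, 2 rose and 6 fell between the IPs, and 1 rose and 2 fell between the inputs, beside the shares of all genes given above for that fit.

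A list of 40 other guidance cues, receptors and co-receptors gave 5 higher and 8 lower in the hypothalamus IP and 2 higher and 6 lower in the midbrain IP, beside 14.2% and 19.6% of all genes in the hypothalamus and 14% and 19.9% in the midbrain. Rtn4r, the Nogo receptor, rose in both regions, at 1.84 ± 0.57 in the hypothalamus (adjusted p = 0.0260) and 1.60 ± 0.56 in the midbrain (adjusted p = 0.0433), and so did its co-receptor Lingo1. Ntng1 (netrin-G1, a membrane-bound relative of the netrins), Rgmb (a ligand of neogenin) and Shh (a morphogen that also guides axons) rose in the hypothalamus IP, at 1.37 ± 0.38, 1.31 ± 0.37 and 1.36 ± 0.40, with adjusted p of 0.0152, 0.0163 and 0.0195. Neo1, the neogenin receptor related to Dcc, fell there at -1.22 ± 0.38 (adjusted p = 0.0257). Mag, a myelin protein and one of the oligodendrocyte markers above, fell in both regions, at -3.27 ± 0.37 in the hypothalamus and -3.76 ± 0.38 in the midbrain. The Shh receptor Ptch1, its co-receptor Cdon, and Lrig1 fell in both regions as well. Without the block edgeR's test called no gene of this list in the regional difference or between the inputs. At an unadjusted p under 0.05 there were 1 in the regional difference (6.56% of all genes) and 7 between the inputs (11.2% of all genes). With the block 6 rose and 13 fell in the hypothalamus IP, and 1 rose and 10 fell between the IPs, while between the inputs 1 rose and 6 fell. Over all genes the blocked fit called 19.5% higher and 23.8% lower in the hypothalamus IP, 4.41% and 6.75% between the IPs, and 2.87% and 3.18% between the inputs. Met, a receptor kinase, was the one called between the IPs without the block, higher in the hypothalamus at a mean of 1.70 CPM, against 0.041 CPM in the midbrain IP.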

How the data were processed

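The deposited values are read counts per gene, 1 table per library. The authors made these counts with STAR 2.0.0e and HTSeq on build mm10, per the submitters' processing notes; the annotation, strand setting and counting mode are not stated there. Reads carry no molecular identifiers, so floors cover counting error only. The 5 summary rows of the counter and 1 row with the name unknown (at most 7 counts) were left out. Reads shared by overlapping genes cannot be split, and 8 members share exon bases with another counted gene.

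Genes were filtered with filterByExpr and scaled with TMM. One model of 4 group means over the 12 libraries was fitted with edgeR 4.0.16 (R 4.3.3), and its robust quasi-likelihood F test was applied to 5 comparisons. A gene was called at a Benjamini-Hochberg adjusted p under 0.05 over 18128 genes. Fold changes are log2 with their SE. The procedure was also run on simulated libraries, drawn independently with the same spread for every gene and no replicate effect. That run therefore does not cover the shift of replicate 1. Exon lengths are from GENCODE mouse release 21. Members given by library were those called that reached 5 CPM on average in a group and whose groups did not overlap, and Dcc in any case. Ephb3, Epha2 and members shown for the blocked fit or the regional difference (such as Nrp1, Nrp2, Unc5d, Sema3a, Epha4 and Sema6a) fall outside this rule and were chosen after their values were seen. The rule by symbol uses no value, but the families and gene lists were chosen with earlier results of these data known.

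Whether replicate numbers pair the libraries was checked by the correlation of deviations from group means. For hypothalamus IP and input it was 0.324, 0.159 and 0.155 at numbers 1, 2 and 3. Between the IPs it was 0.301, 0.113 and 0.219, and between the inputs 0.379, 0.141 and 0.167. The numbers come from the labels. A fit with the number as a block is given beside those comparisons, although it spans all 12 libraries and so also pairs that correlated at under 0.1. Alternatives were other scalings, filters and tools (DESeq2 1.42.0, limma-voom 3.58.1), the block, and leaving out libraries.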

Additional observations from a re-analysis of the deposited data

How the results depend on the processing

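Counts of members called, higher and lower, were 3 and 3 in the hypothalamus, 3 and 5 in the midbrain, 0 and 0 in the regional difference, 1 and 1 between IPs, and 0 and 1 between inputs. With the replicate block they were 8 and 14 in the hypothalamus, 8 and 11 in the midbrain, 2 (Efnb3 and Unc5b) and 0 in the regional difference, 7 and 12 between IPs, and 4 and 5 between inputs. Over all genes the blocked fit called 20.3% and 23.6% in the midbrain, and 0.32% and 0.259% in the regional difference, where Efnb3 stood at 1.44 ± 0.23 (adjusted p = 0.0177) and Unc5b at 1.86 ± 0.32 (adjusted p = 0.0224). In the midbrain the correlation of same-numbered IP and input was 0.189, 0.0754 and 0.157 at numbers 1, 2 and 3, and number 2 is under the 0.1 asked of each pair. Each of these libraries still correlated best with its own number. The labels number the midbrain libraries as they do the hypothalamic ones, and same-numbered midbrain IP and input shared a lane (8, 7 and 3). It was this correlation, and not the labels, that kept blocked fold changes for the midbrain and the regional difference out of the sections above. With the replicate block by region the counts were 8 and 13 in the hypothalamus, 9 and 8 in the midbrain, and 2 and 1 in the regional difference, beside 18.4% and 22.1%, 19.3% and 21.5%, and 0.342% and 0.199% of all genes. DESeq2 called 6 lower in the hypothalamus, 1 higher in the regional difference, 6 and 5 between IPs, and 1 higher between inputs, beside 23.5%, 0.713%, 4.68% and 5.26%, and 2.62% of all genes. Library size alone gave 7 lower in the hypothalamus (22.1% of all genes), where it put the median of all genes at -0.25, beside -0.08 with TMM, and 4 and 2 between IPs (2.07% and 1.98% of all genes). RLE size factors gave 2 and 2 between IPs (2.08% and 2.19%), and limma-voom 2 lower there (1.89%). With only the 2 groups compared in the fit, there were 1 lower in the hypothalamus, 7 higher in the midbrain, 0 and 0 between IPs, and 1 higher between inputs, beside 16.5%, 15%, 0.721% and 0.541%, and 1.25% of all genes.

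Leaving out libraries gave 1 to 4 higher and 1 to 13 lower in the hypothalamus, 0 to 5 and 3 to 9 in the midbrain, 0 to 0 in both directions of the regional difference, 0 to 3 and 0 to 4 between IPs, and 0 to 0 higher and 0 to 1 lower between inputs. Over all genes these fits called 4.36% to 14.3% higher and 8.6% to 19.8% lower in the hypothalamus. In the midbrain they called 5.74% to 15.2% and 10% to 20.9%, and in the regional difference 0% to 0.144% and 0% to 0.0587%. Between IPs they called 0.214% to 2.07% and 0.176% to 3.07%, and between inputs 0.011% to 1.13% and 0.00549% to 0.818%. These ranges include the removal of 1 number from all groups at once, chosen after seeing the data. Without number 1 the counts were 1 and 11 in the hypothalamus, 9 lower in the midbrain, and 3 and 4 between IPs, beside 14.3% and 16.6%, 15.8%, and 1.48% and 3.07% of all genes. Without the block, each call on a member other than those of Plxnb3 in both regions, and of Plxnb1 and Unc5b in the midbrain, was lost without at least 1 of the numbers. Among them Sema7a missed the threshold without number 2 in the hypothalamus (adjusted p = 0.0705) and between inputs (0.103), and Efnb3 without number 3 in the midbrain (0.0663) and without number 2 or 3 between IPs (0.116 and 0.0827). Alternatives were run for the results named in the report, and among these the sign changed for 3 members, none of them called without the block. Robo2 in the hypothalamus lay between -0.089 (without hypothalamus IP replicate 1) and 1.05, and Sema3c between -2.12 and 0.020 (without hypothalamus input replicate 1). Dcc in the hypothalamus lay between -0.78 and 0.084 (without hypothalamus input replicate 1). Between IPs Dcc lay between -0.26 (without hypothalamus IP replicate 1) and 0.48 (without number 2), with 0.47 without midbrain IP replicate 1 and -0.11 without midbrain IP replicate 3. Between inputs it lay between -0.35 (without hypothalamus input replicate 1) and 0.30, with -0.10 without midbrain input replicate 3, -0.11 without number 1 and -0.00174 with limma-voom. In the regional difference it lay between -0.33 (without hypothalamus IP replicate 1) and 0.54, with -0.11 without midbrain input replicate 1, -0.072 without hypothalamus input replicate 2 and -0.17 without midbrain IP replicate 3. The cause of these changes was not tested. The calls on Plxnb3 in both regions, and on Plxnb1 and Unc5b in the midbrain, were kept under every alternative run. Members under 1 CPM had few counts, which limits what can be said of them.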
